A study of Mus musculus with 12 samples.

Results

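The transcripts described here are those of 6 genes of the circadian clock, chosen by name: the activators Arntl, Clock and Npas2, the REV-ERB genes Nr1d1 and Nr1d2, and the ROR gene Rora. All transcripts listed under these symbols were taken, which gave 8 of the 46585 transcripts in the deposited table, whose symbols number 22322. Npas2 and Rora had 2 transcripts each, and the other 4 genes had 1 each. RNA was sequenced from 12 livers, 3 in each of 4 groups, of mice whose strain is C57BL/6 in the labels and C57BL/6J in the study's methods and whose age is 8 weeks in the labels. The sample titles and the methods give 3 mice per group, while a treatment label gives 2 per genotype and time. Were any of the 3 livers of a group from the same mouse, the p-values would be too small. Wild-type (WT) mice carried floxed Bmal1 alleles, and in liver-specific Bmal1 knockout (KO) mice the same alleles were combined with a CRE recombinase under a liver-specific promoter, which the sources do not name. Livers were taken at circadian time 0 h (CT0, when the lights would have come on) or 12 h (CT12), after the last days were spent in darkness. The sources give no CRE to the WT mice, which means that the effect of the recombinase and that of the deletion cannot be told apart.

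Arntl encodes BMAL1, which pairs with CLOCK or its relative NPAS2 and activates genes through E-boxes (CACGTG) in their control regions. Among the genes driven in this way are the period and cryptochrome repressors, the D-box factor Dbp, and Nr1d1 and Nr1d2, which encode REV-ERBα and REV-ERBβ. The REV-ERB proteins are repressors that compete with the ROR activators for ROR elements, and Arntl and Npas2 are known targets of this second loop. In mouse liver, Arntl RNA is known to be high around the start of the day and REV-ERB RNA later in the day.

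Values are RPKM, which is a read count divided by transcript length and library depth. The depth, recovered from the low values, lay between 11460000 and 19020000 reads per liver, and its group means ran from 13530000 ± 1830000 reads in KO livers of CT0 to 18270000 ± 1190000 reads in WT livers of CT0 (SD, n = 3 each). Differences are given on the scale of log2(RPKM + 1), which understates the change of low values, with adjusted p-values from limma over the 26512 transcripts whose mean reached 1 RPKM in any of the 4 groups. All 8 transcripts passed this limit, but Npas2-002 did so only through the KO groups, where it was high. All 8 hepatocyte markers examined were at 1 RPKM or more in at least 1 group, and none was at 0 in all livers. Their summed level was 41500 to 52500 RPKM in the WT livers and 29200 to 36400 in the KO livers. The 5 cholangiocyte markers, of which 4 reached 1 RPKM and none was at 0 throughout, summed to 27.2 to 64.8 RPKM in WT and 88.4 to 152 in KO. Their part in the differences between genotypes was not tested, and fewer cells of a type and less RNA per cell cannot be told apart in whole liver. Of the 2807 transcripts called between genotypes at CT12, 68.1% were higher in KO, and the share was 48.4% after median-of-ratios scaling. For the time difference in WT the share higher at CT12 was 30.0% and 51.9%, and for the interaction of genotype and time the share above 0 was 72.5% and 55.9%. The median difference of all transcripts was 0.08 between genotypes at CT12 and -0.08 between times in WT.

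The first question was which of the 8 transcripts differed between KO and WT at each time. At CT0, 5 of the 8 passed an adjusted p of 0.05, against 1.72% of all transcripts tested. Arntl, Nr1d1 and Nr1d2 were lower in KO, and both Npas2 transcripts were higher. Without the limit of 1 RPKM the calls of Nr1d1, Nr1d2 and Npas2-002 were lost, and Npas2-002 passed this limit only through the KO groups. At CT12, 5 of the 8 passed, against 10.6% of all. Arntl, Clock and both Npas2 transcripts were higher in KO, and Nr1d2 was lower. The median difference of the 8 transcripts was -0.07 at CT0 and 0.62 at CT12, where the medians of all tested transcripts were 0.00 and 0.08. The second question was which transcripts changed between CT0 and CT12. In WT, 5 of the 8 did, against 12.4% of all, with Nr1d2 higher and Arntl, Clock and both Npas2 transcripts lower at CT12. In KO, Arntl alone of the 8 was called, against 2.79% of all. With 0.1 in place of 1 added before the logarithm, Nr1d2 was called in KO and Arntl was not. The interaction, which asks whether the time difference depended on genotype, passed for 3 of the 8, namely Arntl, Clock and Npas2-001, against 1.61% of all. Leaving out 1 liver changed each of these counts except that between genotypes at CT12, as given for each gene. The interaction of Clock was lost in most of these fits. Both Npas2 transcripts may hold the same reads, so they are not independent members of the counts.

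**Figure D1:**
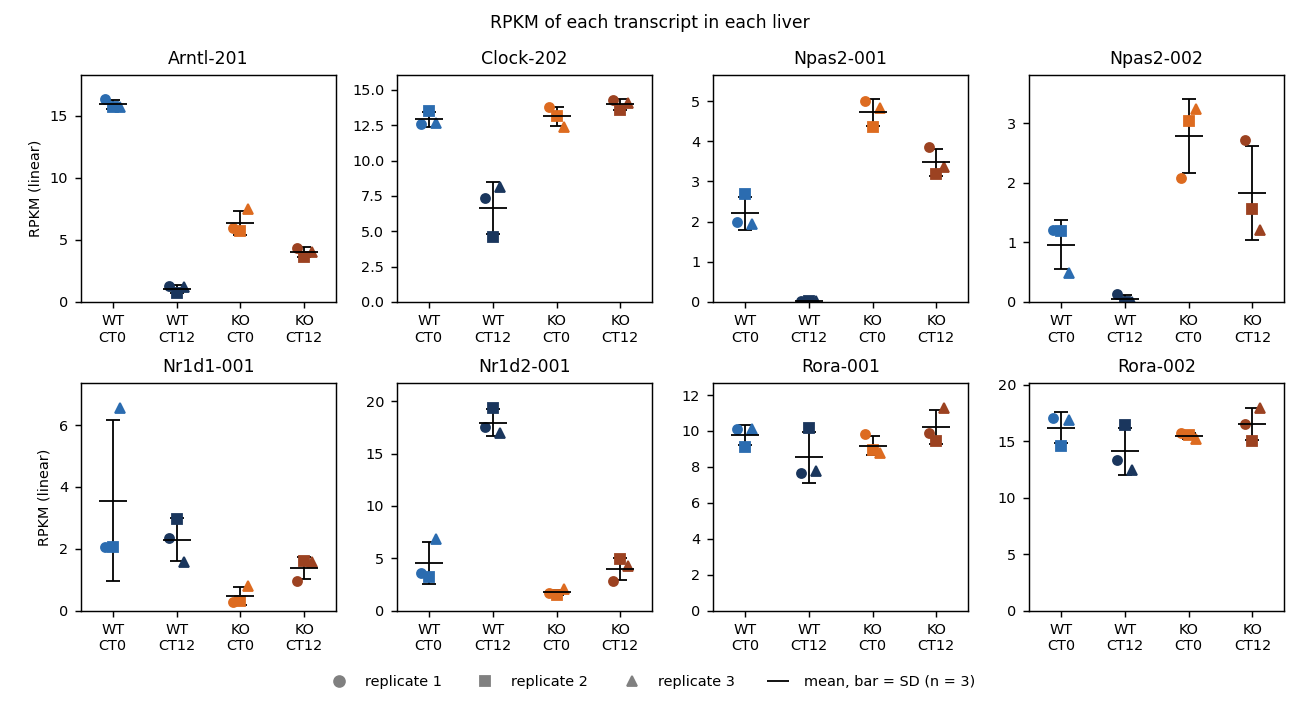
RPKM (linear axis from 0) of each of the 8 transcripts in each of the 12 livers, by genotype and circadian time. Symbols mark replicates, which are named 1 to 3 and were not treated as pairs, and black bars show the mean and SD of 3 livers. The Npas2 transcripts lie at or near 0 in WT at CT12, and WT replicate 3 at CT0 lies far above its group for Nr1d1.

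The Arntl transcript in the table was Arntl-201 (ENSMUST00000047321), with 20 exons and 2904 exonic bases at chr7:120350979-120457636 on the plus strand of NCBIM37. The floxed stretch holds exon 8, part of the helix-loop-helix domain that BMAL1 needs to bind DNA and its partner. This exon is the piece of the gene that CRE removes, and it lies at chr7:120428513-120428670 on the plus strand.

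Arntl exon 8: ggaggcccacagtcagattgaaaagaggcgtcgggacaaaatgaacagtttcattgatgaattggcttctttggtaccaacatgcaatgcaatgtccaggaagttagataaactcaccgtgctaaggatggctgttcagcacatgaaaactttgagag

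The exon has 158 bases, which is 5.44% of the exonic length and leaves a remainder of 2 when divided by 3, so its loss shifts the reading frame. A transcript that lacks this exon alone still yields reads on 94.6% of the length over which the RPKM was taken. The values therefore do not check the deletion, and the level of Arntl is the level of transcripts with or without exon 8.

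In WT at CT0 the RPKM of Arntl was 16.35, 15.70 and 15.71. At CT12 it was 1.26, 0.68 and 1.207. The KO livers were at 5.915, 5.732 and 7.45 at CT0 and 4.37, 3.589 and 4.007 at CT12. No group overlapped another, and the order from high to low was WT at CT0, KO at CT0, KO at CT12 and WT at CT12. In WT the mean dropped 15.2-fold from CT0 to CT12 (log2 difference -3.06, SE 0.13, adjusted p = 1.5e-07 by limma). In KO it dropped 1.6-fold (log2 difference -0.56, SE 0.13, adjusted p = 0.042). At CT0 the KO mean was 2.5-fold below the WT mean (log2 difference -1.21, SE 0.13, adjusted p = 0.00057), and at CT12 it was 3.8-fold above it (log2 difference 1.29, SE 0.13, adjusted p = 5e-05). The genotype difference thus had opposite signs at the 2 times, and the interaction was 2.50 (SE 0.18, adjusted p = 6.6e-05). Under all the alternatives tried, the genotype differences, the time difference in WT and the interaction remained past the threshold. The time difference in KO did not. Its adjusted p by limma ranged from 0.026 to 0.13 over 20 alternatives. It missed the threshold in 9 of the 12 fits that left out 1 liver, and it was 0.13 without KO replicate 3 at CT0 and also without KO replicate 2 at CT12.

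The promoter of Arntl is shown because its levels fell with those of Npas2 in WT and because ROR elements in it are known to receive REV-ERB and ROR proteins. The sequence is the RefSeq window from 250 bases before to 50 after an annotated start (GRCm38.p6, chr7:113207261-113207560, plus strand), with the match to a ROR element in capitals.

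Arntl promoter: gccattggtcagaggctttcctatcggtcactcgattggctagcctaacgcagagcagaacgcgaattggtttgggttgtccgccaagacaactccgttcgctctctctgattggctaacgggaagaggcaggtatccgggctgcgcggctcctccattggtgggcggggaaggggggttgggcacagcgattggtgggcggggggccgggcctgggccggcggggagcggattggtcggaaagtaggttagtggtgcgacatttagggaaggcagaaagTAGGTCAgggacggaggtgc

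Windows were searched on both strands for the E-box CACGTG, its variant CACGTT, the ROR elements TAGGTCA and TGGGTCA, and the D-box TTANGTAA, in which N is any base. Arntl held TAGGTCA at bases 31 to 37 after the start, and 6.45% of the 32851 RefSeq windows held a ROR element in this spelling. A second Arntl window, which starts further upstream, held none of these motifs. None was found in the windows of Clock (3), Npas2, Nr1d2 or Rora (1 each), which says only that these letters are not in those windows.

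Clock encodes the partner of BMAL1. Its transcript was Clock-202 (ENSMUST00000075159), with 23 exons and 7478 exonic bases at chr5:76641202-76733573 on the minus strand of NCBIM37. In WT the RPKM of Clock was 12.59, 13.51 and 12.63 at CT0 and 7.329, 4.59 and 8.096 at CT12. The KO livers had 13.79, 13.18 and 12.41 at CT0 and 14.31, 13.57 and 14.10 at CT12. The 3 WT livers at CT12 were low, and the other 9 livers lay between 12.41 and 14.31. Among these, KO at CT0 overlapped both other groups, and KO at CT12 lay just above WT at CT0.

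In WT, Clock dropped 1.93-fold from CT0 to CT12 (log2 difference -0.89, SE 0.15, adjusted p = 0.0021), and at CT12 the KO mean was 2.1-fold above the WT mean (log2 difference 1.0, SE 0.15, adjusted p = 0.00088). Neither call was lost under any alternative tried. At CT0 the difference between genotypes was 0.02 (95% confidence interval -0.29 to 0.34, adjusted p = 0.97), and in KO the difference between times was 0.09 (-0.23 to 0.40, adjusted p = 0.79). The interaction was 0.98 (SE 0.21, adjusted p = 0.035). It missed the threshold with quantile normalization (0.91, adjusted p = 0.061), with median-of-ratios scaling (0.89, adjusted p = 0.068) and without a filter on low values (adjusted p = 0.072). It also missed it in 10 of the 12 fits that left out 1 liver, with adjusted p-values up to 0.098.

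Npas2 encodes a relative of CLOCK that also pairs with BMAL1. The long transcript Npas2-001 (ENSMUST00000056815) has 21 exons and 4234 exonic bases at chr1:39251057-39420079 on the plus strand of NCBIM37. Npas2-002 (ENSMUST00000173050) has 3 exons and 484 exonic bases at chr1:39250576-39344460. The pair share 205 bases, which is 42.36% of Npas2-002 and 4.842% of Npas2-001. How reads on shared bases were counted is not stated, so the transcripts of 1 gene may hold the same reads.

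**Figure D2:**
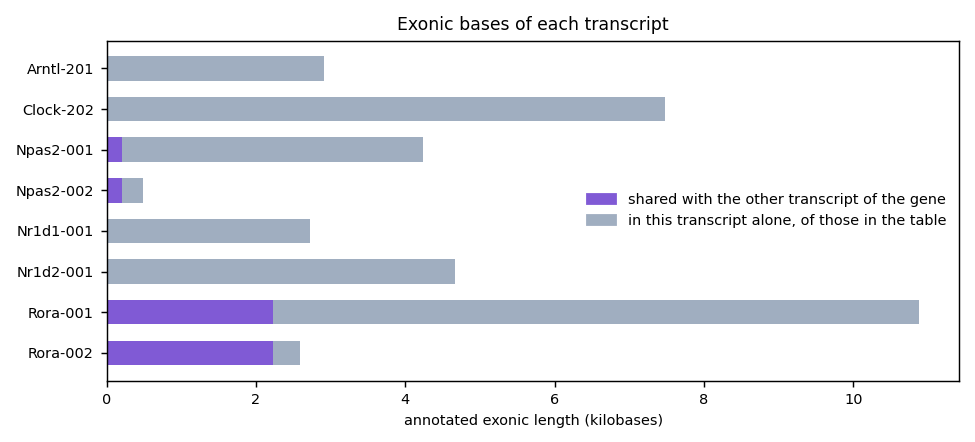
Annotated exonic length in kilobases of the 8 transcripts, with the bases that a transcript shares with the other transcript of its gene in purple. Rora-002 shares 2224 of its 2591 bases with Rora-001, and Npas2-002 shares 205 of its 484 bases with Npas2-001.

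The RPKM of Npas2-001 in WT at CT0 was 1.987, 2.682 and 1.943. In WT at CT12 it was 0.02928, 0.01608 and 0.01761, which stand for 2, 1 and 1 reads. The KO livers had 4.992, 4.346 and 4.821 at CT0 and 3.849, 3.193 and 3.37 at CT12. The order from high to low was KO at CT0, KO at CT12, WT at CT0 and WT at CT12, and no group overlapped its neighbour. Npas2-001 was thus nearly undetected in WT at CT12, while both KO groups lay above the higher WT group.

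The Npas2-001 difference between KO and WT was 0.84 at CT0 (SE 0.11, adjusted p = 0.0037) and 2.13 at CT12 (SE 0.11, adjusted p = 1.5e-06). At CT12, 609 reads in KO stood against 4 in WT, a ratio of pooled rates of 163 with an exact 95% interval of 63.3 to 600 that covers counting error only. In WT, the ratio of CT0 to CT12 was 104 (40.2 to 382, from 514 and 4 reads). The fitted differences at CT12 depended on the constant added before the logarithm, and with 0.1 in place of 1 the genotype difference was 4.88 (SE 0.18, adjusted p = 4.4e-08). Between times in WT, Npas2-001 fell by 1.64 (SE 0.11, adjusted p = 3.5e-06). In KO the difference was -0.36 (95% confidence interval -0.60 to -0.11, adjusted p = 0.11). The interaction was 1.29 (SE 0.16, adjusted p = 0.0017). The calls for both genotype differences, for time in WT and for the interaction held under each alternative tried.

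Npas2-002 followed the same order with far fewer reads, which may in part or in whole be those of Npas2-001 on the shared bases. Its RPKM in WT at CT0 was 1.203, 1.195 and 0.4891, from 11, 11 and 4 reads. In WT at CT12 it was 0.1281, 0 and 0, from 1 read in all 3 livers, where 3 reads in a liver would be worth 0.384 to 0.462 RPKM. In KO it was 2.079, 3.047 and 3.244 at CT0 and 2.722, 1.56 and 1.21 at CT12, from 8 to 21 reads per liver. The WT groups lay below both KO groups, and the KO groups overlapped. The WT group means of 0.9622 and 0.0427 RPKM were under the limit of 1 RPKM, which Npas2-002 passed through the KO means of 2.79 and 1.831, so that its differences between genotypes had a part in its being tested.

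At CT12 Npas2-002 was higher in KO by 1.41 (SE 0.21, adjusted p = 0.0011), a ratio of pooled rates of 39.6 (exact 95% interval 6.68 to 1610, from 37 reads and 1). Without the limit on low values the adjusted p by limma was 0.0031. In WT it fell by 0.89 between CT0 and CT12 (SE 0.21, adjusted p = 0.017), and this call was lost without WT replicate 1 at CT0 (adjusted p = 0.064), WT replicate 2 at CT0 (0.069) or WT replicate 3 at CT12 (0.058). At CT0 it was higher in KO by 0.96 (SE 0.21, adjusted p = 0.044), a call that failed in 14 of 20 alternatives. Without the limit on low values the adjusted p was 0.079, and with a limit on the mean over all livers it was 0.045. The call also failed with 0.1 as the added constant (1.51, SE 0.43, adjusted p = 0.12), and a block for the replicate number gave an adjusted p of 0.057. The difference between times in KO was -0.44 (95% confidence interval -0.90 to 0.02, adjusted p = 0.26), and the interaction was 0.45 (SE 0.30, adjusted p = 0.58).

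Nr1d1 encodes REV-ERBα, a nuclear receptor that represses genes with ROR elements. Its transcript was Nr1d1-001 (ENSMUST00000064941), with 8 exons and 2721 exonic bases at chr11:98629246-98636647 on the minus strand of NCBIM37. E-boxes that receive BMAL1 and CLOCK are known near this gene, and its RefSeq window (GRCm38.p6, chr11:98775328-98775627, minus strand) is shown with the E-box variant in capitals.

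Nr1d1 promoter: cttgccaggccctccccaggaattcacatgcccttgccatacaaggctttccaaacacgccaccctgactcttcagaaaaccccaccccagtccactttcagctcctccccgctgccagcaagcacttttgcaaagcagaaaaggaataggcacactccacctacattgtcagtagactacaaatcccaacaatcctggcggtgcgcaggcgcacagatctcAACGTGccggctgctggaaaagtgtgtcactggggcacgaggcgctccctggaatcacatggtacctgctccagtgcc

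The match AACGTG is CACGTT read on the other strand, at bases -28 to -23 from the start, and 4.68% of all windows held this variant. The window held no CACGTG, which 7.15% of all windows held, and no D-box, which 2.32% held.

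In WT the RPKM of Nr1d1 was 2.042, 2.048 and 6.568 at CT0 and 2.347, 2.953 and 1.562 at CT12. The KO livers were at 0.2712, 0.3097 and 0.8015 at CT0 and 0.9685, 1.61 and 1.56 at CT12. WT replicate 3 at CT0 stood apart from its group, and the WT groups overlapped. All KO livers at CT0 lay below all the others, and at CT12 the groups overlapped, since WT replicate 3 lay below KO replicate 2.

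At CT0 Nr1d1 was 7.71-fold lower in KO than in WT (log2 difference -1.52, SE 0.31, adjusted p = 0.031). Without WT replicate 3 the means differed 4.44-fold and the log2 difference was -1.08 (SE 0.21, adjusted p = 0.047). Without KO replicate 3 they differed 12.2-fold (log2 difference -1.68, SE 0.34, adjusted p = 0.057). The call was lost in 6 of 21 alternatives, among them the fit of the 6 livers at CT0 alone (adjusted p = 0.11 by limma). It was also lost without the limit on low values (adjusted p = 0.072). With 0.1 as the added constant the difference was -2.60 (SE 0.46, adjusted p = 0.018). At CT12 the difference between genotypes was -0.46 (95% confidence interval -1.13 to 0.22, adjusted p = 0.41). Between times it was -0.35 in WT (-1.02 to 0.32, adjusted p = 0.50), which turned to 0.09 without WT replicate 3 at CT0, and 0.71 in KO (0.04 to 1.39, adjusted p = 0.22). The interaction was 1.06 (SE 0.44, adjusted p = 0.32).

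Nr1d1 overlaps Thra, the gene of a thyroid hormone receptor, on the opposite strand by 263 bases, which is 9.666% of its length. The library kit does not mark the strand, so reads from this stretch cannot be assigned to either gene. Thra had 4 transcripts in the table, between 1.85 and 9.43 RPKM. In WT at CT0, replicate 3 was the lowest of the 3 livers for each Thra transcript, where it was the highest for Nr1d1. In KO at CT0 Thra lay between 4.07 and 9.43 RPKM, against at most 0.8015 for Nr1d1. Those Nr1d1 values rested on 11 to 25 reads per liver, and how many of these came from the overlap with Thra was not tested.

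Nr1d2 encodes REV-ERBβ, which acts beside REV-ERBα on the same elements. Its transcript was Nr1d2-001 (ENSMUST00000090543), with 8 exons and 4663 exonic bases at chr14:19036568-19071641 on the minus strand of NCBIM37. In WT the RPKM of Nr1d2 was 3.586, 3.214 and 6.828 at CT0 and 17.54, 19.38 and 16.97 at CT12. The KO livers had 1.712, 1.491 and 2.02 at CT0 and 2.811, 4.891 and 4.237 at CT12. WT at CT12 was the highest group and KO at CT0 the lowest, and between them WT at CT0 and KO at CT12 overlapped. Replicate 3 of WT at CT0 was again the highest of its group.

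Nr1d2 rose from CT0 to CT12 in WT by 1.83 (SE 0.21, adjusted p = 0.0002), and at CT12 it was lower in KO than in WT by 1.95 on the same scale (difference -1.95, SE 0.21, adjusted p = 0.00011). Both calls held under every alternative tried. At CT0 the KO mean was also lower (log2 difference -0.96, SE 0.21, adjusted p = 0.045 by limma), but this call was lost in 13 of 21 alternatives. Without the limit on low values the adjusted p was 0.092, and without WT replicate 3 the difference was -0.69 (SE 0.17, adjusted p = 0.11). In KO the difference between times was 0.84 (95% confidence interval 0.38 to 1.31, adjusted p = 0.06). The KO groups at the 2 times did not overlap, and without WT replicate 3 at CT0, which enters through the shared estimate of the spread, the adjusted p was 0.023. The interaction was -0.99 (SE 0.30, adjusted p = 0.16), and -1.26 (SE 0.23, adjusted p = 0.023) without that liver.

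**Figure D3:**
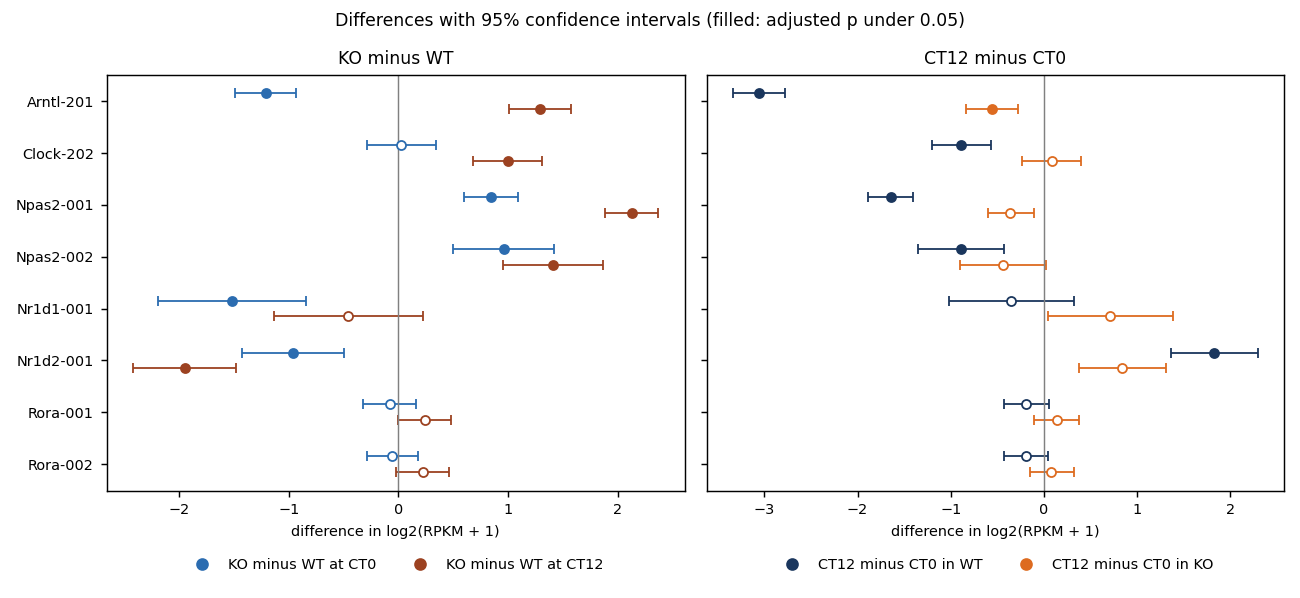
Differences in log2(RPKM + 1) of the 8 transcripts with their 95% confidence intervals, KO minus WT at each time on the left and CT12 minus CT0 in each genotype on the right. Filled points had an adjusted p under 0.05. The Arntl points lie on opposite sides of 0 at the 2 times, at -1.21 and 1.29, and the intervals of both Rora transcripts include 0 throughout.

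Rora encodes RORα, an activator at the elements that the REV-ERB proteins repress. Rora-001 (ENSMUST00000034766) has 11 exons and 10878 exonic bases at chr9:68501593-69236053 on the plus strand of NCBIM37. Rora-002 (ENSMUST00000113624) has 10 exons and 2591 exonic bases at chr9:69137489-69227616 and begins at its own first exon. The 2224 shared bases are 85.84% of Rora-002 and 20.44% of Rora-001. An antisense gene, Gm15511, overlaps both by 82 bases. The stretches below are coding bases that only 1 of the pair holds, and they show how the transcripts differ at their 5′ ends. They lie at chr9:69043882-69043911 for Rora-001 and chr9:69137828-69137855 for Rora-002.

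Rora-001 exon 2: gtatctcagtcacgaagaagacacacacat
Rora-002 exon 1, coding part: atgtattttgtgatcgcagcgatgaaag

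The RPKM of Rora-002 in WT was 17.01, 14.59 and 16.90 at CT0 and 13.35, 16.45 and 12.43 at CT12. The KO livers were at 15.72, 15.53 and 15.18 at CT0 and 16.54, 15.04 and 17.94 at CT12. For Rora-001 the lowest and highest of the 12 livers were 7.677 and 11.30 RPKM, in WT and in KO at CT12. The 4 groups overlapped for both transcripts, and no order of the groups stood out from the spread between livers.

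Rora-002 differed between genotypes by -0.06 at CT0 (95% confidence interval -0.29 to 0.18, adjusted p = 0.88) and by 0.22 at CT12 (-0.02 to 0.46, adjusted p = 0.24). Rora-001 differed by -0.08 (-0.32 to 0.16, adjusted p = 0.82) and by 0.24 (-0.0025 to 0.48, adjusted p = 0.21). Between times in WT both differences were -0.19, with lower bounds of -0.43 and adjusted p-values of 0.27 for Rora-002 and 0.31 for Rora-001. In KO they were 0.08 (adjusted p = 0.71) and 0.14 (adjusted p = 0.53). The bound farthest from 0 among these differences was 0.48. The interactions were 0.28 (SE 0.15, adjusted p = 0.48) and 0.32 (SE 0.16, adjusted p = 0.42).

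The third question was whether the 2 transcripts of a gene moved apart. The ratio of Rora-002 to Rora-001 lay between 1.59 and 1.74 in all 12 livers, with group means of 1.65, 1.65, 1.69 and 1.62 in WT at CT0, WT at CT12, KO at CT0 and KO at CT12. It was thus nearly constant, while most bases of Rora-002 belong to Rora-001 as well. Had the reads of Rora-001 been spread evenly over its length, the shared bases would have held 224 to 426 reads in a liver. All reads of Rora-002, those on its 367 own bases included, came to 1.85 to 2.03 times that number. The figure is therefore not an excess of reads on the shared bases. For Npas2-002, with its 279 own bases included, the same figure was 0.594 to 1.67 in the livers outside WT at CT12. Whether Npas2-002 had reads beyond those of Npas2-001 was not tested, so it is not taken as an independent second measurement. The ratio of Npas2-002 to Npas2-001 lay between 0.252 and 0.707 in the 3 groups other than WT at CT12, and the groups overlapped. In WT at CT12 the ratio rested on 4 and 1 reads and was not interpreted.

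**Figure D4:**
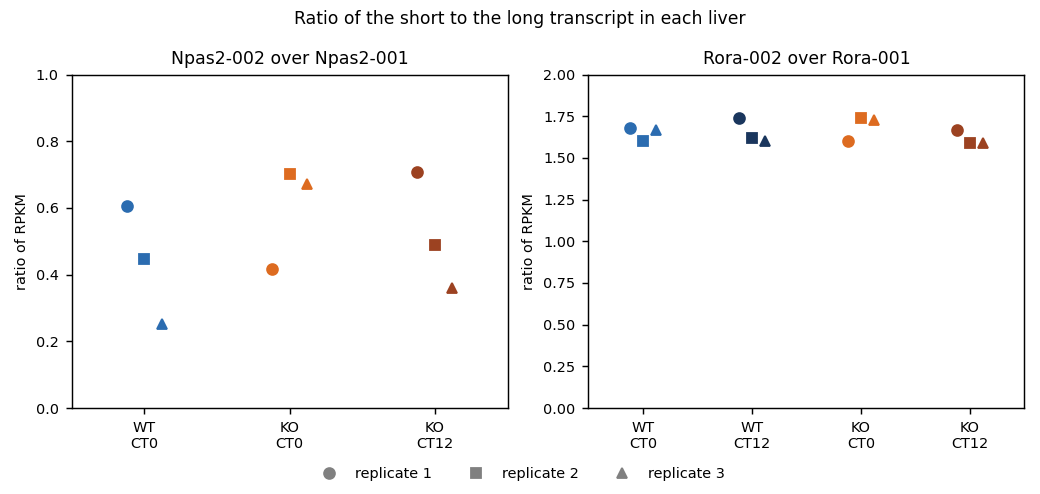
Ratio of the RPKM of the short to that of the long transcript in each liver, for Npas2 (left, without WT at CT12, where 1 to 3 reads per liver made up both transcripts) and Rora (right). The Rora ratio stays between 1.59 and 1.74 in all livers, and the Npas2 ratio spreads from 0.252 to 0.707 with overlap between groups.

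Each transcript was compared with the other of its gene by limma's diffSplice, on log2(RPKM + 0.1) over 20847 transcripts of genes with more than 1. Npas2-002, with WT means of 0.9622 and 0.0427 RPKM, reached the limit of 1 RPKM for this test only through the KO groups. Its differences between genotypes thus had a part in the Npas2 pair being tested. Of the 4 Npas2 and Rora transcripts, 0 passed an adjusted p of 0.05 in any comparison. Among all transcripts 0.0048% passed between genotypes at CT0, 0.0288% between genotypes at CT12, 0.024% between times in WT, 0.00959% between times in KO and 0.00959% for the interaction. With unadjusted p-values, both Npas2 transcripts passed 0.05 in 3 comparisons, where they differed from each other by 1.08 (genotypes at CT12), 1.32 (times in WT) and 1.52 (interaction). The adjusted p by limma was 1.0 in each case. All of these involve WT at CT12, where the pair had 5 reads. For Rora the differences were at most 0.06 in size, and none passed an unadjusted 0.05. Among all 20847 transcripts, 147 (interaction) to 194 (genotypes at CT12) had an unadjusted p under 0.05. This is far under a share of 0.05, which would be reached with no differences at all, so the test was too cautious. It treats the transcripts of a gene as independent, while they may share reads. The lack of a call therefore does not show that 2 transcripts moved together. Reads counted for both would also hold the Rora differences near 0.

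Other clock genes were counted by the highest transcript of each, from a list of repressors, D-box factors, kinases, ligases and cofactors of which 23 could be tested. Between genotypes 6 of the 23 passed at CT0, against 1.9% of the highest transcripts of all genes in the same fit, and 7 at CT12, against 10.8%. Between times 9 passed in WT, against 12.3%, and 2 in KO, against 2.7%. The list was chosen with earlier results known, so its counts are a description. The interaction passed for 6, against 1.56%, all of them below 0, meaning that the KO minus WT difference was lower at CT12 than at CT0. Of the 8 repressors and other E-box targets, 5 rose between CT0 and CT12 in WT (Per1, Per2, Per3, Bhlhe40 and Gm129) and 1 in KO (Per1). All 4 D-box factors changed in WT, with Dbp, Tef and Hlf upward and the repressor Nfil3 downward, and Dbp rose in KO. Of the 6 kinases and ligases, only Csnk1d was called, between genotypes at CT12 (difference 0.35, SE 0.09, adjusted p = 0.023). None of the 5 cofactors was called in any comparison by limma, and at an unadjusted p under 0.05 there was 1 at CT0 between genotypes and 1 between times in KO. Gm129, Dbp and Per3 are named for the size of their genotype difference at CT12, and the other names in this paragraph were chosen after their values were seen. The median difference at CT12 between genotypes was -0.51 for the repressors, -0.72 for the D-box factors, 0.16 for the kinases and ligases and -0.07 for the cofactors, beside 0.08 for all transcripts tested. At CT0 these medians were 0.7, 0.24, 0.02 and -0.13, beside 0.0 for all. The sign for the repressors and D-box factors was thus opposite at CT0, where 4 repressors and other E-box targets were called, all higher in KO.

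The 4 largest differences between genotypes at CT12 among the called genes of this list were those of Gm129, Dbp, Cry1 and Per3. Since this difference chose them, it is given as a description. Gm129, a repressor of BMAL1 and CLOCK, was lower in KO (log2 difference -2.82, SE 0.32). Dbp, a D-box activator driven through E-boxes, differed by -2.0 (SE 0.26) and the period gene Per3 by -1.52 (SE 0.16). At CT0 the differences of Gm129, Dbp and Per3 were 0.28 (SE 0.32), 0.4 (SE 0.26) and 0.67 (SE 0.16), none of them called. Their levels at CT12 were 16.98 RPKM in WT and 1.799 in KO for Gm129, 24.13 and 5.353 for Dbp, and 6.999 and 1.747 for Per3. Cry1, a cryptochrome that is repressed through ROR elements as well as driven by E-boxes, was higher in KO by 1.64 at CT0 (SE 0.10, adjusted p = 5.4e-06) and by 1.62 at CT12 (SE 0.10). It was at 4.849 and 4.733 RPKM in WT and 17.09 and 16.57 in KO at the 2 times. Npas2-001 was also higher in KO at both times. The time difference of Cry1 in WT was -0.02 (adjusted p = 0.91), beside -1.64 for Npas2-001.

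The genes whose levels followed those of each member most closely were taken by Pearson's r of log2(RPKM + 1) over the 12 livers among 10793 other genes. The livers fall into 4 groups and share the group differences, so r is given as a description. For Npas2 they were Dtx4 (r = 0.992) and 1110067D22Rik (0.986). Dtx4 was at 3.65, 0.611, 6.16 and 4.90 RPKM in WT at CT0, WT at CT12, KO at CT0 and KO at CT12. For Nr1d2 they were Upp2 (0.968), which breaks down uridine, and Efhd2 (0.946). Upp2 was at 345 RPKM in WT at CT12 and at 34.2 to 52.0 in the other group means. For Clock they were Crip2 (0.952) and Fpgt (0.95), and Crip2 was at 9.12 RPKM in WT at CT12 and at 25.4 to 29.2 in the other groups. For Arntl they were Ttc5 and Ctnnd1 (0.944 each). For Rora they were Hdac7 (0.912) and Dhx57 (0.876), and for Nr1d1 Cyp4a12a (0.88) and Phf17 (0.842). Cyp4a12a was at 26.3 and 28.1 RPKM in WT and at 5.46 and 16.7 in KO at CT0 and CT12.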

How the data were processed

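Total liver RNA was sequenced from libraries made with an unstranded TruSeq kit. The authors deposited RPKM values (reads scaled to transcript length and library depth), 1 table per liver, not pooled. Their processing notes name TopHat2, bedtools 2.19.1 and the mm9 build, with no roles given, and how reads shared between transcripts were counted is not given in the sources used here. Groups came from the sample titles. Nothing in the sources says how the mice of a group were related, and the p-values take the livers as independent. They set a difference against the spread between livers within groups, estimated over all 4 groups and moderated across transcripts.

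Transcript names, lengths and positions came from GENCODE vM1 on NCBIM37, which is mm9, and held a length for 44483 of the 46585 transcripts. RPKM multiplied by exonic length fell on whole reads for 94.91% to 95.66% of low values per liver (tolerance 0.02 reads), which gave the depth, and for all values of the 8 transcripts. Replicates of a group correlated with r of 0.9804 to 0.9901 across transcripts, which are not independent replicates, and none was near identical (SD of the log2 difference 0.247 or more). Transcripts whose mean reached 1 RPKM in any group were fitted as log2(RPKM + 1) with limma 3.58.1 in R 4.3.3 (4 group means, contrasts, eBayes with trend). The Benjamini-Hochberg adjustment ran over all fitted transcripts, with a threshold of 0.05. DiffSplice was run on log2(RPKM + 0.1) for transcripts whose mean over all livers reached 1 RPKM. The fits were tested on simulated data in which transcripts varied independently, which does not cover reads shared between transcripts of a gene. Exact intervals of read ratios cover counting error only. Python 3.11.15, pandas 2.3.3, scipy 1.17.1 and matplotlib 3.10.9 were used for the rest.

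The members and gene lists were chosen with earlier results of these data known. Besides the members, the rule named the 4 clock genes with the largest called genotype difference at CT12, genes whose exons overlap a member, the 2 closest genes by correlation for each member, and cell type markers. Summed levels of the other marker lists did not enter a test: Kupffer cell (7 of 8 markers with a transcript, 69.7 to 158 RPKM), endothelial (6 of 6, 32.6 to 69.1), stellate (6 of 6, 94.8 to 185) and lymphocyte (5 of 6, none at 1 RPKM, 0.328 to 1.57). For each of these lists the sums in WT and KO livers overlapped. The alternatives were other added constants and filters, 2 scalings, only the highest transcript of each gene, the replicate number as a block, a model without moderation, only the 6 livers compared, and leaving out each liver. Promoter windows came from RefSeq on GRCm38.p6.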

Additional observations from a re-analysis of the deposited data

Results flagged for a closer look

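The interaction, tested on log2(RPKM + 1) with limma, passed an adjusted p of 0.05 for 3 of the 8 transcripts, against 1.61% of all tested. For Arntl-201 the interaction was 2.50 (SE 0.18, adjusted p = 6.6e-05), with a time difference of -3.06 in WT and -0.56 in KO. For Npas2-001 it was 1.29 (SE 0.16, adjusted p = 0.0017), with -1.64 and -0.36. For Clock-202 it was 0.98 (SE 0.21, adjusted p = 0.035), with -0.89 and 0.09. Over the alternatives the adjusted p ranged from 6.4e-05 to 0.00061 for Arntl-201, from 2.3e-05 to 0.007 for Npas2-001 and from 0.012 to 0.098 for Clock-202. The call of Clock-202 was lost in 13 of the alternatives, so its dependence on genotype is uncertain.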

How the results depend on the processing

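Of the values of single transcripts under all alternatives, 1057 kept their direction and their side of the threshold, 63 lost a call, 6 gained one and 6 changed sign, none of these called. The sign changes were those of Clock-202 between genotypes at CT0 without KO replicate 1 at CT0 (-0.01, range over the fits without 1 liver up to 0.06), Nr1d1-001 between times in WT without WT replicate 3 at CT0 (0.09, lowest -0.57), Rora-002 (0.01, lowest -0.05) and Rora-001 (-0.01, highest 0.05) against each other at CT12 without WT replicate 1 at CT12, and Npas2-001 (-0.02, highest 0.44) and Npas2-002 (0.02, lowest -0.44) against each other between times in KO without KO replicate 3 at CT12.

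The number of the 8 transcripts called was 5 between genotypes at CT0, against 1.72% of all, and 1 between times in KO, against 2.79%. Without a filter these were 2 and 0, with only the 6 livers compared 2 and 0, with quantile normalization or median-of-ratios scaling 0 for the latter, and in the model without moderation, at unadjusted p, 3 for the latter. Leaving out 1 liver gave 2 to 5 at CT0, 5 at CT12, 4 to 5 between times in WT, 0 to 1 in KO and 2 to 3 for the interaction.

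Over all transcripts, the counts were 457 at CT0, 2807 at CT12, 3298 between times in WT, 741 in KO and 426 for the interaction. They became 201, 1130, 1252, 262 and 161 with only the highest transcript of each gene, where fewer transcripts are tested, and 3588, 6325, 7115, 5089 and 3429 at unadjusted p without moderation. Without a filter they were 290 at CT0 and 424 in KO, and with only the 6 livers 255 and 52. Leaving out 1 liver gave 159 (without WT replicate 2 at CT0) to 501 at CT0, 1840 (without WT replicate 3 at CT12) to 3098 at CT12, 1926 (without WT replicate 3 at CT12) to 3582 in WT, 176 (without KO replicate 3 at CT0) to 751 in KO and 234 (without WT replicate 2 at CT0) to 393 for the interaction. Apart from the fewer transcripts or livers, the cause of these shifts was not tested.

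For transcripts against the others of their gene, the 1 call at CT0 became 0 and the 2 calls of the interaction became 1 with at least 1 RPKM in every sample. With an added constant of 1 the 2 calls in KO became 4 and those of the interaction 1. Leaving out 1 liver gave 0 to 4, 4 to 10, 3 to 9, 1 to 3 and 2 to 6 calls, in the order used above, and 0 of them were member transcripts.

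The labels say nothing of what a replicate number stands for, and the livers were not treated as pairs. The correlation of deviations from the group means averaged 0.0155 (-0.0574 to 0.15) for livers of equal number and -0.00773 (-0.18 to 0.089) for those of unequal number, and 6 of the 12 livers, not all, correlated best with their own number. With the replicate number as a block, 394, 2639, 3156, 700 and 409 transcripts were called, and of the 8 transcripts 4 at CT0 (without Npas2-002) and the same numbers as before elsewhere.

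At 11460000 to 19020000 reads per liver, Npas2-002 rested on 0 to 21 reads per liver, Npas2-001 in WT at CT12 on 4 reads in all and Nr1d1 in KO at CT0 on 11 to 25 per liver, so differences between these groups are known only within wide intervals. With 3 livers a group and 2 times, neither the phase nor the amplitude of a rhythm can be read from these data.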
